A study of Homo sapiens with 48 samples.

Results

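KLHL24, CREBRF, UBALD2, NATD1 and SULT1C2 are 5 human genes that were higher in HK-2 kidney cells after 12 h of the compound labelled Ra than in the matching vehicle cells. They were selected on the measured difference between the Ra and vehicle arrays at 12 h, where 8 of 11356 genes (0.0704%) passed an adjusted p under 0.05 in limma's test across all genes, 6 of them (0.0528%) as rises, and these genes are 5 of those 6. Genes that pass this threshold are referred to as called. All values at 12 h of Ra, and all values set against the vehicle arrays of that time and set, are therefore given as description without a test. The 5 genes were measured by 18 probe sets, of 41091 with a single gene symbol in the platform annotation. Of the 18 probe sets, 17 exceeded a log2 value of 4 on at least 3 arrays, and each gene is represented below by its probe set of highest mean.

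Each of the genes acts in a different part of the cell's chemistry. KLHL24 is a BTB-kelch protein, a substrate adaptor that brings proteins to the CUL3 ubiquitin ligase, and is best known for controlling keratin turnover in skin. CREBRF is a leucine zipper regulator that binds the stress transcription factor CREB3 and lowers its amount, and it is also known as a gene of energy storage. UBALD2 carries a ubiquitin-associated-like domain and NATD1 an acetyltransferase-like domain, and both are little studied. SULT1C2 is a cytosolic sulfotransferase, which moves sulfate from the donor PAPS onto phenols, drugs and other small molecules and is present in kidney. Tubule cells take up and clear many drugs, and sulfation is among the reactions used for this.

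The measurements came from 48 arrays of HK-2 cells, a single immortalised line derived from human proximal tubule, in 16 groups of 3 arrays. In the CsA set, cells received CsA or vehicle for 12 h or 48 h. In the Fk and Ra set, cells received Fk, Ra or a shared vehicle for 12 h or 48 h, and in the Nnm set a low dose of Nnm, a high dose or a shared vehicle for 24 h or 48 h. The labels name no dose, vehicle or full compound name, all cells grew in the same hormone-supplemented medium, and the CsA set alone carries the tag lab 3 in its titles. The labels call the arrays of a group biological replicates without naming separate cultures, so p-values measure the spread between these arrays.

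Epithelial identity was partly retained. Of 18 proximal tubule and epithelial markers, 8 exceeded the filter, among them KRT8, KRT18, PAX8, EPCAM, CDH1 and CDH2, whereas AQP1, LRP2, CUBN and SLC34A1 did not. Of 10 markers each, 3 fibroblast, 3 endothelial and 1 leukocyte marker exceeded it, with mean log2 values of 8.12 to 10.59, 3.82 to 4.38 and 3.51. One library stood apart: the upper quartile of all log2 values was 6.20 on Ra 48 h array 2 and 6.85 to 7.24 on the other arrays. Tested differences at 48 h of Ra are therefore given with and without that array.

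Promoter sequences (RefSeq, GRCh38.p14) show what lies directly upstream of the genes whose levels moved together or apart. The 250 bases before the start site were searched on both strands for the E-box CACGTG and the CCAAT box, which are printed in capitals in CREBRF, NATD1 and UBALD2. The CREBRF stretch is chr5:173056102-173056351 on the plus strand, the NATD1 stretch is chr17:21253411-21253660 on the minus strand, and the UBALD2 stretch is chr17:76265098-76265347 on the plus strand.
CREBRF: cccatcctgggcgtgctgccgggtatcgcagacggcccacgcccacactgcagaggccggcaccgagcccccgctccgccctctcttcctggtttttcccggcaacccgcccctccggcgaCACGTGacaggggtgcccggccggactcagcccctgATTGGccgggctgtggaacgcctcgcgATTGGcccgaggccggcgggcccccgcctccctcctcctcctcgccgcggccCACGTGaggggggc
NATD1: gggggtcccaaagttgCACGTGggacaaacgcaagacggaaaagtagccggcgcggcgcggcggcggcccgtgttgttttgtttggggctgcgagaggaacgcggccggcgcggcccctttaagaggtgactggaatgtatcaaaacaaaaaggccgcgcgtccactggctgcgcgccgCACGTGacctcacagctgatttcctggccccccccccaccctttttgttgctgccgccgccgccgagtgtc
UBALD2: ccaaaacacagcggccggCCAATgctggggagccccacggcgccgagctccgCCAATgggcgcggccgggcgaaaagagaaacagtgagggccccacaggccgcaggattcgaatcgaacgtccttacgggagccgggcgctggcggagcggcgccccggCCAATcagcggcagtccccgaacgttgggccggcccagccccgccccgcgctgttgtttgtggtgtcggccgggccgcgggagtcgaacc
CREBRF held 2 E-boxes and 2 CCAAT boxes, NATD1 held 2 E-boxes and no CCAAT box, and UBALD2 held 3 CCAAT boxes and no E-box. KLHL24 held 1 CCAAT box, and SULT1C2 held neither motif. Of 27305 human promoters of the same length, 6.49% held an E-box and 33% a CCAAT box. None of the 5 promoters held the forkhead element GTAAACA (2.98% of all promoters), the palindromes TCACGTGA (0.89%, itself containing the E-box) or TGACGTCA (1.77%), or the ATF4 element TGATGNAA (3.19%). A match describes these letters in this window and says nothing of whether a factor binds there.

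The genes themselves lie on 4 chromosomes. KLHL24 occupies chr3:183635623-183684519, CREBRF chr5:173056352-173139284 and SULT1C2 chr2:108288895-108309915. UBALD2 at chr17:76265348-76271298 and NATD1 at chr17:21238870-21253410 are on the same chromosome, far apart.

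At 12 h of Ra each gene stood 3.18- to 4.27-fold above vehicle, and the Ra and vehicle arrays overlapped for none of them, as for 17.2% of all genes in this direction. KLHL24 read 9.53, 9.67 and 8.97 on the log2 scale on the Ra arrays (replicates 1, 2 and 3, the order used throughout) and 7.30, 7.48 and 7.15 on the vehicle arrays, a difference of means of 2.08 or 4.22-fold. CREBRF read 8.12, 8.02 and 7.73 against 6.32, 5.56 and 5.70, a difference of 2.09 or 4.27-fold. All Ra arrays of KLHL24, CREBRF, UBALD2 and NATD1 lay more than 1 log2 unit above the gene's highest vehicle array. The lowest Ra array of SULT1C2 did not. UBALD2 read 9.39, 9.58 and 9.12 against 7.54, 7.05 and 7.52, a difference of 1.99 or 3.98-fold. NATD1 read 6.91, 7.14 and 6.31 against 5.01, 5.00 and 4.61, a difference of 1.92 or 3.77-fold. SULT1C2 read 9.35, 9.54 and 8.90 against 8.05, 7.84 and 6.89, a difference of 1.67 or 3.18-fold. SULT1C2 had the smallest rise of the group and the widest vehicle arrays, with an SD of 0.62 against 0.17 to 0.41 for the other genes.

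By the size of the rise the genes ranked 3 (CREBRF), 4 (KLHL24), 5 (UBALD2), 7 (NATD1) and 18 (SULT1C2) among 6033 genes with a higher mean. At the edge of the selection, IFIT2, an interferon-induced gene, lay just inside with a difference of 2.12, and HERC5, an interferon-induced ubiquitin ligase, lay just outside with 1.03. Arrays of whole cultures do not separate a change in RNA per cell from a change in which cells remain.

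**Figure D1:**
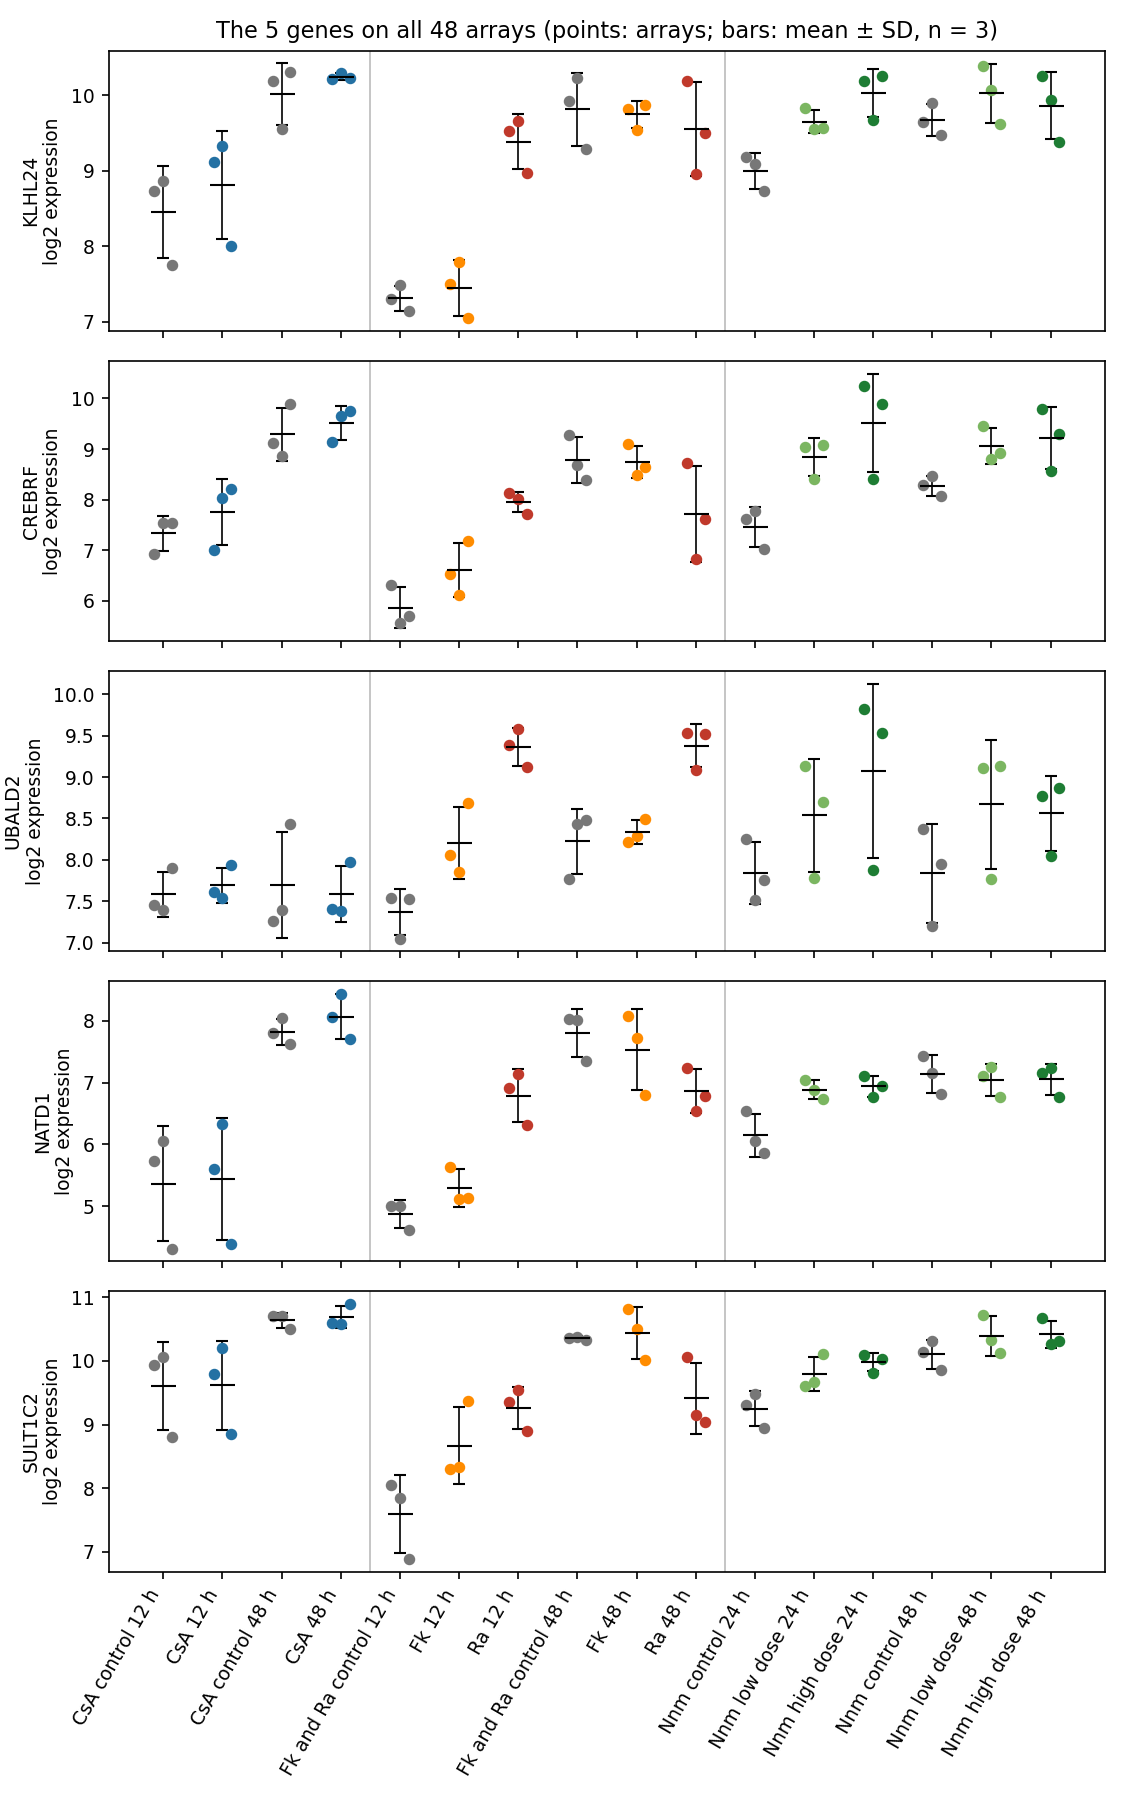
Log2 expression of KLHL24, CREBRF, UBALD2, NATD1 and SULT1C2 (rows) on every array of the 16 groups, with points for arrays, bars for the mean ± SD (n = 3), grey for vehicle and colours for compounds. In every row the vehicle arrays of 12 h in the Fk and Ra set, which took part in the selection, have the lowest mean. KLHL24, CREBRF, NATD1 and SULT1C2 stand high in vehicle cells at 48 h.

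The vehicle cells of 12 h that served as the reference had the lowest mean of all 16 groups for every one of the 5 genes. Those means were 7.31 ± 0.17 for KLHL24, 5.86 ± 0.41 for CREBRF, 7.37 ± 0.28 for UBALD2, 4.87 ± 0.23 for NATD1 and 7.59 ± 0.62 for SULT1C2 (SD, n = 3). The 12 h vehicle cells of the CsA set were higher, at 8.45 ± 0.61, 7.34 ± 0.35, 7.58 ± 0.28, 5.37 ± 0.93 and 9.60 ± 0.69 in the same order. The set and the laboratory tag differ together between these vehicle groups and cannot be told apart, and whether the vehicle itself differed is not given in the labels. The genes were also selected for standing above the 12 h vehicle arrays of the Fk and Ra set, which favours low values there. Its part in this order was not tested.

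In vehicle cells alone, 4 of the genes were much higher at 48 h than at 12 h. Within the Fk and Ra set, which shares the 12 h vehicle arrays with the selection and is given as description, KLHL24 was higher by 2.50, CREBRF by 2.93, NATD1 by 2.93 and SULT1C2 by 2.77 at 48 h, and UBALD2 by 0.86. The rise over time in vehicle cells was thus larger than the rise after 12 h of Ra for 4 of the 5 genes, and smaller for UBALD2.

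The CsA set's vehicle arrays were not compared in the selection and were tested, although they entered the estimate of spread in the fit to all arrays. There 4 of the 5 genes were called higher at 48 h than at 12 h, beside 13.7% of all genes called in either direction and 6.12% called higher. NATD1 read 5.74, 6.05 and 4.31 at 12 h and 7.80, 8.04 and 7.63 at 48 h. It rose by 2.46 ± 0.37 (SE), or 5.49-fold, with an adjusted p of 6.14e-05 (limma, Benjamini-Hochberg over 11356 genes). CREBRF read 6.93, 7.54 and 7.53 at 12 h and 9.12, 8.87 and 9.88 at 48 h, a rise of 1.95 ± 0.41 or 3.87-fold (limma adjusted p = 0.00208). All 4 genes had no overlap between the times, as for 15.4% of all genes in this direction, and NATD1 and CREBRF were called in all 6 fits that each left out an array.

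KLHL24 read 8.74, 8.87 and 7.75 at 12 h and 10.19, 9.55 and 10.31 at 48 h, a rise of 1.56 ± 0.32 or 2.95-fold (limma adjusted p = 0.00141). Its call also held in all 6 such fits, but averaging its 5 probe sets gave 0.96 with an adjusted p of 0.0579 (limma), and the 4 other probe sets tested singly had adjusted p-values of 0.143 to 0.632. SULT1C2 read 9.94, 10.07 and 8.80 at 12 h and 10.71, 10.70 and 10.51 at 48 h, a rise of 1.04 ± 0.33 or 2.05-fold (limma adjusted p = 0.0309). Vehicle array 3 of 12 h was the lowest of its group for KLHL24, NATD1 and SULT1C2. Without it the SULT1C2 difference was 0.64 (limma adjusted p = 0.275), and without 48 h vehicle arrays 1 or 2 the call was also lost, with adjusted p-values of 0.0709 and 0.102 (limma). It was lost as well with no filter on low values (0.0552) and in a fit to the arrays of the CsA set alone (0.0975).

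Among the cell type markers in the same comparison, 1 of 3 fibroblast markers was called. LUM, a matrix proteoglycan, was lower at 48 h, at 8.71 ± 0.69 against 10.07 ± 0.03 (limma adjusted p = 0.0230), and the median difference of the 3 was -0.55. No epithelial (8), endothelial (3) or leukocyte (1) marker was called. The part of LUM in the rise of the members was not tested.

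UBALD2 did not follow. It read 7.46, 7.39 and 7.90 at 12 h and 7.26, 7.39 and 8.43 at 48 h, a difference of 0.11 with a 95% interval of -0.70 to 0.92 (limma adjusted p = 0.910). The 12 h and 48 h arrays overlapped throughout.

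In Nnm vehicle cells, 48 h was set against 24 h. KLHL24 was higher by 0.67, CREBRF by 0.81, NATD1 by 0.98 and SULT1C2 by 0.85, with no overlap between the times (11.9% of all genes had none in this direction), and UBALD2 differed by -0.01. None of the 5 was called (limma, 0% of all genes, with 664 of them at an unadjusted p under 0.05). NATD1, at 6.54, 6.06 and 5.85 against 7.43, 7.15 and 6.82, passed when the replicate number was fitted as a block (limma adjusted p = 0.0264, with 0.704% of all genes called).

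**Figure D2:**
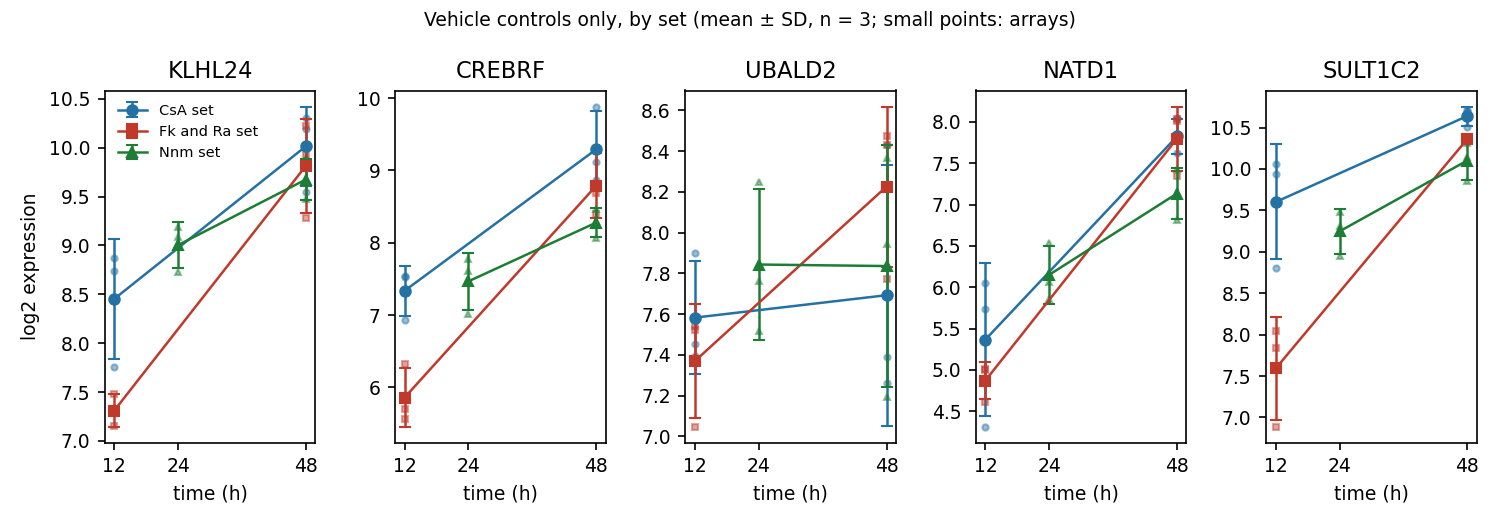
Log2 expression in vehicle cells only, against time in h, for the CsA set (circles), the Fk and Ra set (squares) and the Nnm set (triangles), as mean ± SD (n = 3) with arrays as small points. KLHL24, CREBRF, NATD1 and SULT1C2 are higher at 48 h in all 3 sets, and UBALD2 differs by 0.86 or less.

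After 48 h of Ra the genes no longer moved one way. UBALD2 was still above its vehicle, SULT1C2 was below it, and the means of CREBRF and NATD1 were below theirs without passing the test. The 2 calls compare with 18.5% of all genes called at this time, 2.97% higher and 15.6% lower, and with a median difference over all genes of -0.18. Without Ra array 2 the share called was 7.19%, with 3.72% higher, 3.47% lower and a median of 0.00. UBALD2 read 9.54, 9.08 and 9.52 on the Ra arrays and 7.77, 8.43 and 8.48 on the vehicle arrays. It rose by 1.15 ± 0.40 (SE), or 2.23-fold, with an adjusted p of 0.0396 (limma) and no overlap, as for 5.11% of all genes in this direction.

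SULT1C2 read 10.06, 9.15 and 9.04 after Ra and 10.37, 10.38 and 10.33 in vehicle, and fell by 0.95 ± 0.33 on the log2 scale, or 1.93-fold (limma adjusted p = 0.0398). Its vehicle arrays were close together (SD 0.03), and every Ra array lay below them, as for 17.2% of all genes in this direction. CREBRF read 8.72, 6.83 and 7.62 after Ra and 9.28, 8.69 and 8.40 in vehicle, a difference of -1.06 ± 0.41 (limma adjusted p = 0.0674) with overlapping groups. Without Ra array 2, its lowest array, that difference was -0.62 (0.432). NATD1 read 7.24, 6.55 and 6.79 after Ra and 8.03, 8.01 and 7.35 in vehicle, a difference of -0.94 ± 0.37 (limma adjusted p = 0.0692) without overlap, and of -0.78 (0.259) without Ra array 2. KLHL24 read 10.20, 8.96 and 9.50 after Ra and 9.93, 10.22 and 9.29 in vehicle in the probe set used. The difference of -0.26 had a 95% interval of -0.91 to 0.38 and turned to 0.03 without Ra array 2. Means of other KLHL24 probe sets, further below vehicle, are given with the probe sets. Among the cell type markers, COL1A1 was lower at this time, at 7.11 ± 0.99 against 8.15 ± 0.15 (limma adjusted p = 0.0241), and 0 of 8 epithelial markers were called. The COL1A1 difference was -0.47 (0.371) without Ra array 2. Their part in these differences was not tested.

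Both calls rest on small margins. Without Ra array 2, which had the low upper quartile, UBALD2 differed by 1.30 (limma adjusted p = 0.0698) and SULT1C2 by -0.82 (0.174). UBALD2 also lost its call without Ra array 1 (1.07, 0.0745), Ra array 3 (1.09, 0.0894), vehicle array 1 (0.93, 0.199) or vehicle array 2 (1.26, 0.0710), and SULT1C2 without Ra array 3 (-0.76, 0.145) or vehicle arrays 1, 2 or 3 (-0.94, -0.93 and -0.96, with 0.111, 0.103 and 0.0608). When each array was centred on its own median, UBALD2 stayed called at 1.41 (limma adjusted p = 0.0118) and SULT1C2 did not, at -0.69 (0.134).

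In Ra cells the mean of UBALD2 was 9.36 ± 0.23 at 12 h and 9.38 ± 0.26 at 48 h. The Ra means of the other genes at the 2 times were also near each other, with KLHL24 at 9.39 and 9.55, CREBRF at 7.95 and 7.72, NATD1 at 6.79 and 6.86 and SULT1C2 at 9.26 and 9.42. The vehicle means moved instead, from 7.31 to 9.81 for KLHL24, from 5.86 to 8.79 for CREBRF, from 4.87 to 7.80 for NATD1 and from 7.59 to 10.36 for SULT1C2. The Ra difference at 48 h minus that at 12 h was -2.34 for KLHL24, -3.16 for CREBRF, -0.84 for UBALD2, -2.85 for NATD1 and -2.62 for SULT1C2, given as description because it uses the selecting arrays.

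Fk, given in the same set, moved the genes less at 12 h than Ra did in the probe sets used. The genes were selected by their rise at 12 h of Ra, which favours this order. SULT1C2 read 8.30, 8.33 and 9.37 after 12 h of Fk, 1.07 above vehicle, and UBALD2 read 8.06, 7.85 and 8.69, 0.83 above it. CREBRF was 0.75 higher, NATD1 0.42 and KLHL24 0.13. The arrays of UBALD2, NATD1 and SULT1C2 did not overlap those of vehicle, as for 9.29% of all genes in this direction, and no test is given because the vehicle arrays took part in the selection. Fk array 3 was the highest of its group for SULT1C2, UBALD2 and CREBRF and the lowest for KLHL24, and its upper quartile of all values, 6.85, was the second lowest of the 48 arrays.

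After 48 h of Fk none of the 5 genes was called, with differences of -0.26 for NATD1 to 0.11 for UBALD2 and 95% intervals reaching at most -1.01 and 0.92. No gene at all was called there (limma, 0%, with 311 at an unadjusted p under 0.05). Set directly against Ra at 48 h, Fk cells held more SULT1C2, at 10.82, 10.50 and 10.01 against 10.06, 9.15 and 9.04, a difference of 1.03 ± 0.33 (limma adjusted p = 0.0275). This was the only member called, beside 17.3% of all genes, and the lowest Fk array was below the highest Ra array. The call was lost without Fk arrays 1 or 2 (0.84 and 1.00, with adjusted p-values of 0.176 and 0.0779 in limma), without Ra arrays 2 or 3 (0.89 and 0.84, with 0.152 and 0.108), after centring (0.73, 0.119) and in the fit to the arrays of the set alone (0.0840). The endothelial marker PECAM1 was lower with Fk than with Ra by 0.70 (-0.70, limma adjusted p = 0.0193), and its part in the SULT1C2 difference was not tested. Without Ra array 2, 1 of 3 endothelial markers was called lower.

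UBALD2 was on the other side, with 8.22, 8.29 and 8.49 after Fk against 9.54, 9.08 and 9.52 after Ra. The difference of -1.05 ± 0.40 missed the threshold (limma adjusted p = 0.0656) and passed it after centring, at -1.34 (0.0189), and in the fit to the set alone (0.0245). CREBRF differed by 1.02 (limma adjusted p = 0.0837), NATD1 by 0.67 (0.211) and KLHL24 by 0.20 (0.735). Without Ra array 2 these were -1.19 for UBALD2, 0.58 for CREBRF, 0.52 for NATD1 and -0.10 for KLHL24, none of them called, and 4.89% of all genes were called.

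CsA left the 5 genes near their vehicle levels. At 12 h the differences ran from 0.02 for SULT1C2 to 0.42 for CREBRF, with 95% intervals from -0.70 to 1.26 at the widest, and at 48 h from -0.11 for UBALD2 to 0.25 for NATD1, with intervals from -0.92 to 1.07. None was called at 12 h (limma, 0% of all genes, with 36 at an unadjusted p under 0.05) or at 48 h (1.02% of all genes). KLHL24 read 9.11, 9.33 and 8.00 with CsA at 12 h against 8.74, 8.87 and 7.75 in vehicle, so that the same-numbered array was higher with CsA in 3 of 3 cases by less than the spread within a group. The intervals leave room for a 2-fold rise of CREBRF at either time.

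The CsA and Ra differences at 48 h were compared through their own vehicles. CREBRF, NATD1 and SULT1C2 stood higher with CsA relative to vehicle than with Ra, by 1.29, 1.18 and 1.00, and UBALD2 lower by 1.26. None passed the test of that difference (limma adjusted p of 0.114 to 0.137, with 16.5% of all genes called), and KLHL24 differed by 0.50 (0.494). With the replicate number as a block, CREBRF (adjusted p = 0.0387), UBALD2 (0.00396) and NATD1 (0.00656) passed in limma, beside 26.5% of all genes. Without Ra array 1, CREBRF at 1.79 (adjusted p = 0.0224) and SULT1C2 at 1.32 (0.0385) passed in limma, so the count depended on single arrays. Without Ra array 2 the differences were 0.85 for CREBRF, 1.03 for NATD1, 0.87 for SULT1C2, 0.20 for KLHL24 and -1.41 for UBALD2, with limma adjusted p-values of 0.123 to 0.842. The CsA and Fk differences at 48 h were not called apart for any of the 5 (limma, 0% of all genes, 696 at an unadjusted p under 0.05), with values of -0.22 for UBALD2 to 0.51 for NATD1.

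**Figure D3:**
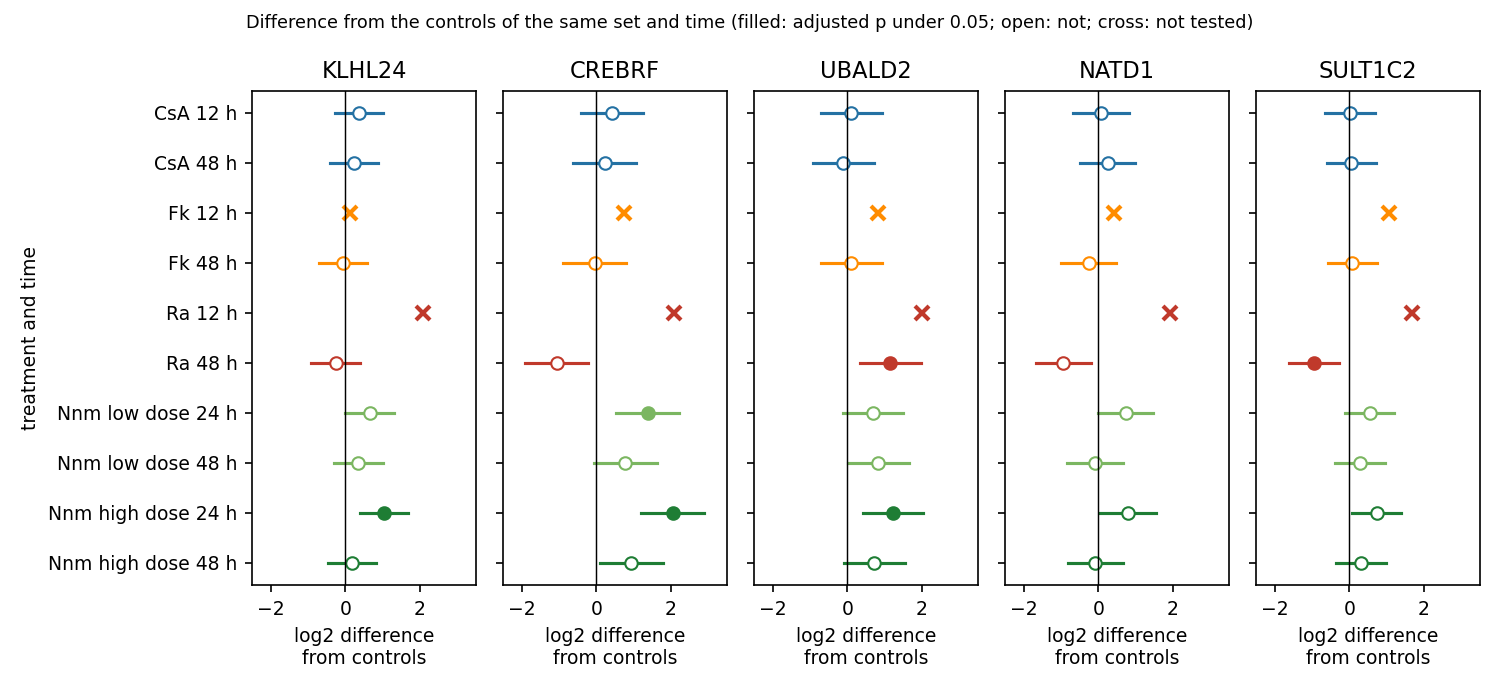
Log2 difference from the vehicle cells of the same set and time (x axis) for each treatment and time (y axis), 1 panel per gene. Lines are 95% intervals from limma, filled points are called, open points are not, and crosses are comparisons that share arrays with the selection and were not tested. CREBRF, KLHL24 and UBALD2 are called at 24 h of the high dose of Nnm, and at 48 h of Ra UBALD2 is called above and SULT1C2 below vehicle.

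With Nnm, tested on arrays that were not compared in the selection, 3 of the 5 genes rose at 24 h of the high dose. Of all genes, 23.1% were called and 10.5% called higher. The Nnm arrays did enter the estimate of spread in the fit to all arrays. CREBRF read 10.25, 8.41 and 9.89 at the high dose and 7.61, 7.77 and 7.02 in vehicle. It rose by 2.05 ± 0.41 (SE), or 4.14-fold, with an adjusted p of 0.000757 (limma) and was called in all 6 fits that left out an array. High-dose array 2 was the lowest of its group and still lay above every vehicle array.

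KLHL24 read 10.18, 9.67 and 10.26 at the high dose and 9.19, 9.09 and 8.73 in vehicle, a rise of 1.03 ± 0.32 or 2.05-fold (limma adjusted p = 0.0182). The call was lost without high-dose arrays 1 or 3 or vehicle array 3 (0.96, 0.92 and 0.90, with limma adjusted p-values of 0.0952, 0.0954 and 0.0895). UBALD2 read 9.82, 7.87 and 9.54 at the high dose and 8.25, 7.52 and 7.76 in vehicle, a rise of 1.23 ± 0.40 or 2.35-fold (limma adjusted p = 0.0238). High-dose array 2 lay below vehicle array 1, so the groups overlapped, and array 2 was also the lowest UBALD2 array of the vehicle and low-dose groups. The call was lost without high-dose arrays 1 or 3 (0.86 and 1.00, with limma adjusted p-values of 0.218 and 0.145), without vehicle arrays 2 or 3 (1.07 and 1.19, with 0.0916 and 0.0735), and in the fit to the arrays of the Nnm set alone (0.0931).

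NATD1 read 7.10, 6.77 and 6.95 against 6.54, 6.06 and 5.85, a difference of 0.79 ± 0.37 (limma adjusted p = 0.117), and SULT1C2 read 10.09, 9.82 and 10.02 against 9.31, 9.48 and 8.95, a difference of 0.73 ± 0.33 (0.103). Neither was called, although neither overlapped vehicle, as for 18.8% of all genes in this direction. Same-numbered arrays of the Nnm set varied together, and with that number as a block NATD1 also passed (limma adjusted p = 0.0075, with 33.7% of all genes called). In the fit to the arrays of the set alone both NATD1 (0.0154) and SULT1C2 (0.0186) passed.

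At 24 h of the low dose CREBRF alone was called, beside 8.29% of all genes. It read 9.04, 8.40 and 9.09 against vehicle at 7.61, 7.77 and 7.02, a rise of 1.38 ± 0.41 or 2.60-fold (limma adjusted p = 0.0344). The call was lost without low-dose arrays 1 or 3 (1.28 and 1.25, with limma adjusted p-values of 0.157 and 0.148) or vehicle arrays 1 or 3 (1.45 and 1.15, with 0.0724 and 0.191). It was also lost with no filter on low values (0.0635) and with the arrays of the set alone (0.0505), where NATD1 passed instead (0.0381). The other differences were 0.65 for KLHL24, 0.69 for UBALD2, 0.73 for NATD1 and 0.55 for SULT1C2, with adjusted p-values of 0.210 to 0.327 (limma). With the replicate block UBALD2 (adjusted p = 0.0288) and NATD1 (0.0216) also passed in limma, beside 18% of all genes.

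At 48 h of Nnm none of the 5 was called at either dose, beside 5.22% of all genes at the low dose and 16.8% at the high dose. CREBRF read 9.46, 8.80 and 8.92 at the low dose, 9.79, 8.58 and 9.29 at the high dose and 8.30, 8.47 and 8.07 in vehicle, with differences of 0.78 and 0.94 (limma adjusted p of 0.294 and 0.116). Every treated array of CREBRF lay above every vehicle array, as for 19.7% of all genes at the low dose and 19.6% at the high dose. UBALD2 read 9.11, 7.77 and 9.14 at the low dose, 8.78, 8.04 and 8.87 at the high dose and 8.37, 7.19 and 7.95 in vehicle, with differences of 0.83 and 0.73 (limma adjusted p of 0.234 and 0.215). Array 2 was again the lowest in each of these groups, and each treated array was above the vehicle array of the same number.

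With the replicate block UBALD2 passed at both doses of 48 h (limma adjusted p of 0.0119 and 0.0150), beside 13% and 27.4% of all genes, and CREBRF at the high dose (0.0319). Without low-dose array 2 UBALD2 passed at 1.29 (limma adjusted p = 0.0497), and without high-dose array 2 CREBRF passed at 1.26 (0.0374). KLHL24 (0.35 and 0.19), SULT1C2 (0.29 and 0.32) and NATD1 (-0.09 and -0.08) were nearer to vehicle, with 95% intervals of -0.46 to 1.00, -0.37 to 0.98 and -0.83 to 0.66 over both doses. At 48 h of the high dose 1 of 3 endothelial and 1 of 8 epithelial markers were called. PECAM1 was higher at 5.05 ± 0.24 against 4.23 ± 0.12 and CDH2 at 10.29 ± 0.37 against 9.47 ± 0.26 (limma adjusted p of 0.00680 and 0.0399), and their part was not tested. No marker was called at the low dose or at 24 h.

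Dose and time within Nnm did not separate the genes by test. High minus low dose ranged from 0.06 for NATD1 to 0.67 for CREBRF at 24 h, and from -0.16 for KLHL24 to 0.16 for CREBRF at 48 h, and none of the 5 was called, beside 0.00881% and 0.0176% of all genes in limma. The high-dose difference at 48 h minus that at 24 h was negative for all 5, from -0.41 for SULT1C2 to -1.11 for CREBRF, with limma adjusted p-values of 0.836 to 0.955, beside 0.00881% of all genes called. The 95% interval for CREBRF ran from -2.30 to 0.08. As in the CsA set, the vehicle means of KLHL24, CREBRF, NATD1 and SULT1C2 were higher at the later time.

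Ordered over all 16 groups, neighbouring means seldom differed by more than the mean of their SDs. This held for 3 of 15 steps in KLHL24, NATD1 and SULT1C2, 4 in CREBRF and 0 in UBALD2. KLHL24 ran from 7.31 to 10.25, CREBRF from 5.86 to 9.52, NATD1 from 4.87 to 8.07 and SULT1C2 from 7.59 to 10.69, each lowest in 12 h vehicle cells of the Fk and Ra set and highest with CsA at 48 h. The 12 h groups of the Fk and Ra set other than Ra were the lowest 2 groups of these 4 genes, and the vehicle group among them took part in the selection. In each of the 4 genes some steps above the spread lay at or just above these groups, and others lay higher in the order. UBALD2 ran from 7.37 in the same vehicle cells to 9.38 at 48 h of Ra, with the 4 groups of the CsA set, at 7.58 to 7.69, in the next 4 places.

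Across the 48 arrays KLHL24 correlated with NATD1 (r = 0.88), CREBRF (0.86) and SULT1C2 (0.85), while UBALD2 correlated with the others at 0.09 to 0.34. These values describe arrays that share groups, times and sets. They include the Ra and vehicle arrays of 12 h that selected the genes for a common rise, which favours positive correlation. The part of the selection in these values was not tested, because no correlation was computed without those arrays. After subtracting each group's mean, KLHL24 and NATD1 kept 0.69, NATD1 and SULT1C2 0.68, and UBALD2 and CREBRF reached 0.58. Within groups the correlation of UBALD2 was higher with CREBRF than with KLHL24 (0.02), NATD1 (-0.16) or SULT1C2 (0.03). Same-numbered arrays deviated together in the CsA and Nnm sets, so these deviations are not independent. The part of such shared deviations, or of single arrays, in these correlations was not tested.

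Probe sets of the same gene differed in places. For KLHL24, the probe set used was 226158_at, and 206551_x_at was flat, between 7.90 and 8.86 on all 48 arrays. At 12 h of Fk, 221985_at and 221986_s_at were 1.98 and 2.15 above vehicle where 226158_at was 0.13 above it. That gap came from Fk array 3, on which 221985_at read 11.00 against 6.20 and 6.51 on the other Fk arrays, and 221986_s_at read 10.78 against 6.65 and 6.37. At 12 h of Ra, 4 of the 5 KLHL24 probe sets were higher, by 1.63 to 2.08. At 48 h of Ra, 242088_at, 221985_at and 221986_s_at had means of 4.43 ± 0.98, 7.40 ± 1.12 and 7.49 ± 0.90 (SD). Their vehicle means were 5.45 ± 0.25, 8.18 ± 0.10 and 8.20 ± 0.15, further above Ra than for 226158_at. These differences were not tested without Ra array 2. At 24 h of high Nnm, 242088_at, 221985_at and 221986_s_at tested singly rose by 1.47, 1.78 and 2.02 (limma adjusted p of 0.0189, 0.0428 and 0.0145), more than the 1.03 of the one used (0.0201).

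For CREBRF, 225956_at and 225957_at were 2.09 and 1.94 above vehicle at 12 h of Ra, 238476_at 1.15, and 1554229_at and 235556_at 0.12 and 0.38. At 48 h of Ra, 225957_at tested singly fell by 1.67 on the log2 scale and was called (limma adjusted p = 0.00601), where 225956_at was not. The Ra arrays of 225957_at spread widely (SD 1.40), from 5.17 to 7.70, and single probe sets were not tested without Ra array 2. The dimmest, 235556_at, exceeded log2 4 on 18 arrays. All 5 CREBRF probe sets were called higher at 48 h than at 12 h in CsA-set vehicle cells when probe sets were tested singly (limma adjusted p of 0.00245 for the one used and 0.00394 to 0.0215 for the others). For UBALD2, 224783_at and 224785_at gave 1.99 and 1.72 at 12 h of Ra and 1.15 and 0.73 at 48 h, where 224785_at tested singly was not called (limma adjusted p = 0.148).

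For NATD1, 226657_at carried the changes and 1553872_at stayed between 4.32 and 5.25. For SULT1C2, 205342_s_at moved with 211470_s_at, 205343_at differed from vehicle by -0.91 and -1.24 at 48 h of low and high Nnm where 211470_s_at was 0.29 and 0.32 higher, and 240200_at did not exceed log2 4 on any array. Which transcripts each probe set reads was not examined here.

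**Figure D4:**
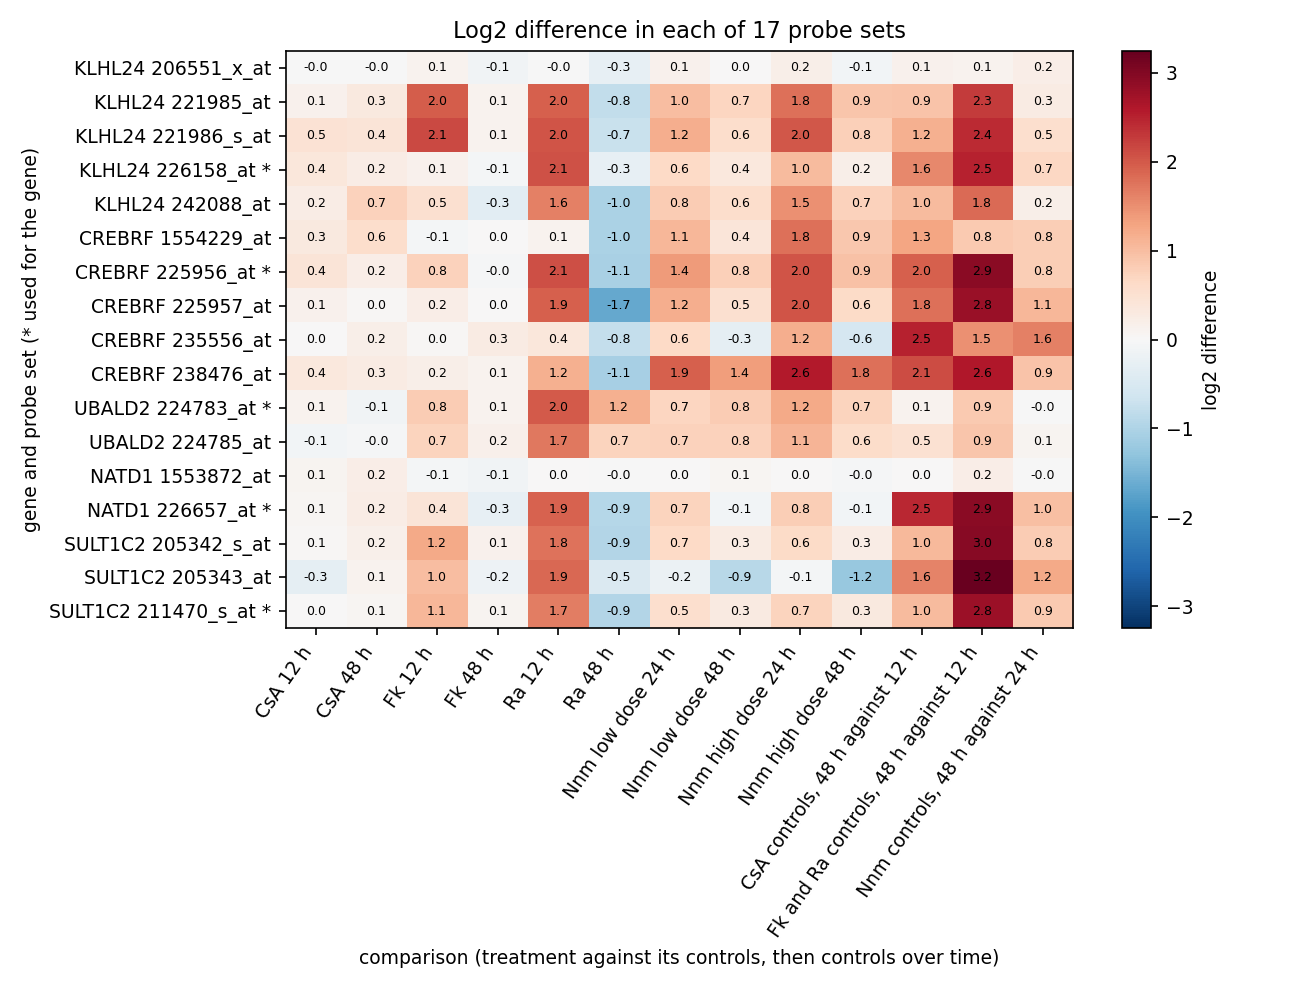
Log2 difference (colour and printed value) in each of the 17 probe sets that passed the filter (rows, with an asterisk for the one used per gene) for 10 treatment comparisons and 3 vehicle time comparisons (columns). Within each gene except UBALD2 at least 1 probe set departs from the one used, such as the flat 206551_x_at of KLHL24 and 1553872_at of NATD1.

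Genes of the pathways around the 5 were read from lists of related genes, as counts beside the share called, and list medians beside the median, over all genes. Of 29 FOXO and starvation-response genes measured, 17 rose and 0 fell at 24 h of high Nnm, where 10.5% of all genes rose and 12.5% fell, with a median difference of 0.89 against -0.01 for all genes. At low 24 h, low 48 h and high 48 h, 5, 3 and 6 rose and 0 fell, beside 3.58%, 2.77% and 8.89% of all genes called higher, and the medians were 0.46, 0.27 and 0.65 against 0.01, 0.02 and 0.02. TXNIP, an arrestin-like brake on glucose uptake, rose by 2.88 at 24 h and 6.38 at 48 h of high Nnm (limma adjusted p of 0.00681 and 1.62e-06). ERBB3, a receptor kinase, rose by 2.73 at 48 h of the high dose (0.000263).

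At 48 h of Ra, 2 of the 29 rose and 4 fell, beside 2.97% and 15.6% of all genes, with a median of -0.27 against -0.18, and without Ra array 2, 1 rose and 1 fell. TXNIP read 3.57, 5.22 and 9.09 after Ra and 3.67, 3.55 and 4.04 in vehicle, a rise of 2.20 (limma adjusted p = 0.0399). Ra array 3 alone was far above vehicle, the groups overlapped, and without Ra array 2 the call was lost (2.57, 0.0594). GADD45A, of the same list, fell by 1.74 on the log2 scale at 48 h of Ra (limma adjusted p = 0.00494). It stayed called without Ra array 2 (-1.60, 0.0382). In CsA-set vehicle cells, where KLHL24, CREBRF, NATD1 and SULT1C2 rose with time, 6 of the 29 rose and 2 fell, beside 6.12% and 7.56% of all genes, with a median of 0.42 against -0.01. TXNIP fell there by 4.57 on the log2 scale (limma adjusted p = 0.000264).

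Of 12 genes of the CREB3 family and its targets, the system CREBRF acts on, 1 rose and 4 fell at 48 h of Ra, beside 2.97% and 15.6% of all genes. The median was -0.43 against -0.18 over all genes. Without Ra array 2, 1 rose and 2 fell, beside 3.72% and 3.47% of all genes. With time in CsA-set vehicle cells 5 of the 12 rose and 1 fell, beside 6.12% and 7.56% of all genes, with a median of 0.28 against -0.01. HERPUD1, an endoplasmic reticulum stress gene, fell by 2.48 on the log2 scale at 48 h of Ra and rose by 3.40 with time in vehicle (limma adjusted p of 0.00100 and 4.49e-05). It fell by 1.98 and was still called without Ra array 2 (0.0205). CREB3 itself fell by 0.80 on the log2 scale at 24 h of high Nnm (limma adjusted p = 0.0389), where CREBRF rose. Of these 12, 0 rose and 1 fell there, beside 10.5% and 12.5% of all genes, with a median of -0.06 against -0.01.

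Of 28 BTB-kelch adaptors and CUL3 ligase parts, the company of KLHL24, 6 rose and 1 fell at 24 h of high Nnm, beside 10.5% and 12.5% of all genes, and 4 rose and 0 fell at 48 h, beside 8.89% called higher. The list's medians were 0.17 and 0.18, against -0.01 and 0.02 over all genes. At 48 h of Ra 2 rose and 2 fell, beside 18.5% of all genes called, with a median of 0.02 against -0.18. Without Ra array 2, 2 rose and 1 fell. KLHL42, an adaptor of the same family, rose by 2.24 at 24 h of high Nnm (limma adjusted p = 0.00274). IVNS1ABP, of the same list, fell there by 2.28 on the log2 scale (limma adjusted p = 0.00373).

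Of 9 sulfotransferases and sulfate supply genes, 0 rose and 0 fell at 48 h of Ra, where SULT1C2 was called lower. Of all genes, 2.97% rose and 15.6% fell there. The list's median was 0.00 against -0.18, and its counts were the same without Ra array 2. At 24 h of high Nnm 1 fell, the sulfate transporter SLC26A2, by 1.23 on the log2 scale (limma adjusted p = 0.0252). The list median there was -0.26 against -0.01, and 12.5% of all genes were called lower. Of 14 N-acetyltransferases and UBALD1, 0 rose and 4 fell both at 48 h of Ra and at 24 h of high Nnm, with medians of -0.33 and -0.14. Over all genes, 15.6% and 12.5% were called lower at these times, with medians of -0.18 and -0.01. SAT2, of this list, fell by 1.53 on the log2 scale at 48 h of Ra (limma adjusted p = 0.000839). It stayed called without Ra array 2 (-1.22, 0.0177). The spermidine acetyltransferase SAT1 fell by 1.24 on the log2 scale at 48 h of Ra (limma adjusted p = 0.0198) and lost its call without Ra array 2 (-0.99, 0.139). Without that array 2 of the 14 fell, beside 3.47% of all genes.

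The genes whose pattern over the 10 treatment comparisons was most like each member were taken by Pearson correlation of mean differences, as a description over comparisons that share vehicle arrays. They were RGS12 (0.95), NATD1 (0.94) and HBP1 (0.90) for KLHL24, HBP1 (0.97), USP32P2 (0.97) and NR1D2 (0.97) for CREBRF, and RHEBL1 (0.93), CMPK2 (0.90) and IGF1R (0.88) for UBALD2. For NATD1 they were PLEKHM3 (0.96), KLHL24 (0.94) and MBTD1 (0.93), and for SULT1C2 PIERCE2 (0.95), DNASE2 (0.93) and PTPRM (0.93). The 10 comparisons include the difference that selected the members, which favours likeness among them. Over the 9 comparisons without Ra at 12 h, HBP1 remained among the 3 most like KLHL24 (0.96), and none of the other genes kept its place. NATD1 ranked 224 for KLHL24 (0.85) over these 9. The 9 still include Fk at 12 h, set against the vehicle arrays of the selection, so they are not free of it. There UBALD2 correlated with KLHL24 at 0.24, with CREBRF at 0.25, with NATD1 at 0.01 and with SULT1C2 at 0.10, and CREBRF with KLHL24 at 0.92.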

How the data were processed

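RNA of HK-2 cells was hybridised to 48 arrays, and the deposited table holds log2 expression values. The submitters' processing notes name GCRMA as the tool, without a version. GCRMA corrects background from probe sequence and equalises array distributions, which can compress differences of dim probe sets. The values were used as deposited. After 62 control probe sets were set aside, 41091 of 54675 probe sets had 1 gene symbol, and 1801 had several and were not used. Probe sets above log2 4 on at least 3 arrays were kept, with the highest mean per gene, giving 11356 genes.

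One linear model with a mean per group was fitted to all arrays with limma 3.58.1 (lmFit, eBayes, R 4.3.3). Contrasts were tested two-sided with Benjamini-Hochberg adjustment over all genes, at 0.05. Of 22 contrasts, 4 share arrays with the selection and were not tested. The spread of each gene was estimated from all arrays together, so the tested contrasts share that estimate with the selecting one. The number of arrays limits the precision: the median SE within a set was 0.26. The test was checked on simulated data.

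The members and the gene lists (FOXO and starvation response, BTB-kelch and CUL3, CREB3, sulfotransferases, N-acetyltransferases, and markers of epithelium, fibroblasts, endothelium and leukocytes) were chosen with earlier results of these data known. Named beside the members were up to 2 called genes with the largest change per list and comparison, of which the text gives a part, the 3 genes most like each member, and the genes nearest the selection's threshold.

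Same-numbered arrays deviated together in the CsA set (18 of 18 pairs above r = 0.1, 0.24 to 0.93) and the Nnm set (45 of 45, 0.14 to 0.79). In the Fk and Ra set 19 of 45 pairs did. The reported tests did not use the replicate number in any set. It entered only in the alternative with a replicate block, which was fitted in all sets. Alternatives were no filter, probe sets singly or averaged, centring, quantile normalization, fits by set, the replicate block and leaving out each array. Promoters came from RefSeq tables of GRCh38.p14. Protein sequences were not used here.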

Additional observations from a re-analysis of the deposited data

Results flagged for a closer look

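For NATD1 and SULT1C2 the difference between Ra and vehicle cells changed sign between the 2 times, with no overlap of the arrays at either. The same lack of overlap held for 17.2% of all genes upward at 12 h and 17.2% downward at 48 h. NATD1 was 1.92 above vehicle at 12 h and 0.94 below it at 48 h (-0.94), and the Ra difference at 48 h minus that at 12 h was -2.85. SULT1C2 was 1.67 above vehicle at 12 h and differed by -0.95 at 48 h, and the same quantity was -2.62. This change was not tested, because the 12 h arrays selected the genes. NATD1 did not pass the test at 48 h (limma adjusted p = 0.0692). SULT1C2 passed it (limma adjusted p = 0.0398) and lost its call without Ra array 2 (-0.82, 0.174) and after centring (-0.69, 0.134). The vehicle means went from 4.87 to 7.80 for NATD1 and from 7.59 to 10.36 for SULT1C2, while the Ra means were 6.79 and 6.86 for NATD1 and 9.26 and 9.42 for SULT1C2.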

How the results depend on the processing

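Of 90 tested differences of the 5 genes, 11 were called, 28 were called in the reported analysis or under any alternative, and 0 of these 28 reversed. Of the 62 never called, 33 changed sign under some alternative. At 48 h of Ra, where 2 genes were called, the number was 0 with no filter on low values, 1 (CREBRF) with averaged probe sets, 1 (UBALD2) with centring, with quantile normalization or with the set's arrays alone, and 4 with the replicate block. For Nnm low dose at 24 h, where 1 was called, it was 0 with no filter and 3 with the replicate block. The replicate block gave 1 call instead of 0 for low Nnm at 48 h and for Nnm vehicle cells over time. Of all genes, 13% and 0.704% were called there. With the block, 2 instead of 0 were called for high Nnm at 48 h, beside 27.4% of all genes. For the CsA minus Ra difference it gave 3 instead of 0, beside 26.5%, and the count was 1 (UBALD2) with the arrays of the 2 sets alone. For Fk against Ra at 48 h the block gave 4 instead of 1. No share of all genes is given beside that count, so it is not read as a result about the 5 genes. With the set's arrays alone the count stayed at 1 for low Nnm 24 h (NATD1 for CREBRF) and Fk against Ra (UBALD2 for SULT1C2). It was 4 at high Nnm 24 h without UBALD2, and 3 for CsA-set vehicle cells without SULT1C2. Shares of all genes are not given beside these counts, which are therefore not read as results about the 5 genes. In the Fk and Ra set replicate numbers paired the arrays only weakly. The mean r was 0.10 between same-numbered arrays (from -0.18 to 0.76) and -0.05 between the others. What the block takes out in that set was not tested.

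Leaving out 1 array gave 0 to 3 called genes at 48 h of Ra, 0 to 1 at low Nnm 24 h, low Nnm 48 h and high Nnm 48 h, 1 to 3 at high Nnm 24 h, 0 to 2 for Fk against Ra and for CsA minus Ra, and 3 to 4 for CsA-set vehicle cells over time. In the other tested comparisons it gave 0 throughout. Shares of all genes are not given for most of these fits, so the counts describe only how far the calls depended on single arrays. Over all genes, the replicate block raised the number called at 48 h of Ra from 2106 to 3241, at low Nnm 24 h from 941 to 2049 and for CsA-set vehicle cells over time from 1554 to 2734, and the set's arrays alone lowered it at 48 h of Ra to 984. Leaving out Ra array 2 lowered it there to 817. The causes of these changes were not tested. With 3 arrays a group, a difference under about 1 log2 unit in these genes was mostly not separable from the spread between arrays.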
